A study of Mus musculus with 6 samples.

Results

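The 10 genes described here encode fatty acid desaturases and elongases and were taken by symbol from a table of 28450 genes measured in mouse liver. They are the desaturases Scd1, Scd2, Fads1, Fads2 and Fads3 and the elongases Elovl1, Elovl2, Elovl3, Elovl5 and Elovl6. There were 3 male mice labelled Acsm3 knockout, set against 3 male mice labelled WT (control). Every mouse was 12 weeks old and fed a normal diet, and each liver gave 1 poly(A)-selected RNA library. The Acsm3 product is an enzyme of mitochondria that joins medium-chain fatty acids to coenzyme A. The labels give neither the part of the gene that was disrupted nor whether the disruption was limited to some cells. Acsm3 itself was at 0.668, 2.92 and 1.08 FPKM in knockout livers, against 33.2, 34.4 and 32.2 FPKM in control livers.

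Newly made or dietary acyl chains are lengthened in the endoplasmic reticulum by a cycle whose first, rate-setting step is carried out by an ELOVL elongase. Desaturases place double bonds in these chains with electrons passed on from cytochrome b5. SCD enzymes place the first double bond in saturated chains and yield oleate and palmitoleate, which the liver builds into triglycerides and cholesterol esters. FADS1 and FADS2, working in turn with ELOVL5 and ELOVL2, turn the essential fatty acids of the diet into arachidonate and docosahexaenoate.

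Levels are FPKM, the fragments of a gene scaled to its length and to the library total, so they can be compared between genes. A fold change is the difference of mean log2(FPKM + 1), knockout minus control, given ± the standard error of limma (n = 3 livers per genotype), and for genes with low FPKM it is smaller than the change of the FPKM themselves. The test took in 10996 genes whose FPKM averaged 1 or more, all 10 members among them, and a gene was called at a Benjamini-Hochberg adjusted p under 0.05. Of the 10 members, 4 rose (Scd1, Scd2, Elovl1 and Elovl6), 4 fell (Fads1, Fads2, Fads3 and Elovl2) and 2 did not pass (Elovl3 and Elovl5). Over all tested genes 16.5% were called, 13.9% as higher and 2.61% as lower. After median-ratio rescaling of the libraries 3 members were called higher (Elovl6 no longer) and 4 lower, against 14.3% of all tested genes, 7.57% as higher and 6.7% as lower. At least 2-fold changes on the same scale were seen in Scd1 and Scd2, which were higher, and in Fads3, which was lower, against 1.97% of tested genes called higher by this much and 0.282% called lower. The knockout and control values of 8 members did not overlap, 4 of them higher and 4 lower in the knockout, where 41.8% of all tested genes had groups that did not overlap (33.9% higher and 7.91% lower). The median log2 fold change was 0.39 over the members and 0.13 over all tested genes. Library totals were estimated at 15302150 to 16175500 fragments in knockout and 15711800 to 16344400 in control livers. Over all tested genes, the first principal component (56.1% of the variance) placed knockout 3 at -10.1, nearest to the controls, with the other knockouts at -24.6 and -27.7 and the controls at 17.3 to 25.9. Leaving out each mouse in turn gave 4 members higher and 4 lower without knockout 3, 3 higher and 4 lower without knockout 1, 3 higher and 2 lower without knockout 2, 4 higher and 4 lower without control 1, 3 higher and 3 lower without control 2, and 4 higher and 2 lower without control 3. The share of all tested genes called was 20.4% without knockout 3 and 2.59% to 5.81% without any one of the other mice.

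The promoters of a pair of members that fell together (Fads2 and Elovl2), of 1 that rose (Elovl1) and of 1 that did not pass (Elovl5) are shown to set sequence beside the direction of change. Each is the 250 bases before an annotated start, 5′ to 3′ on the strand of the gene, from RefSeq (GRCm38.p6), in which 6 of the 10 members had an entry. Elovl1 and Elovl2 each had 2 starts there, of which 1 was used. Capitals mark matches, on either strand, to 5 motifs, which are the CCAAT box (CCAAT), the GC box (GGGCGG), the E-box (CACGTG), a form of the sterol element (TCACNCCAC) and the TATA box (TATAAA). Scd1, Scd2, Fads1 and Elovl3 were not matched.
Fads2: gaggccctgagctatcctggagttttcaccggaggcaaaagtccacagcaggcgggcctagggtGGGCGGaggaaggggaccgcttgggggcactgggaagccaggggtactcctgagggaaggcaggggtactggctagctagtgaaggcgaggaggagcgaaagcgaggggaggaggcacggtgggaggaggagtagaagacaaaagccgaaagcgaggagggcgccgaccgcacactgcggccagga
Elovl2: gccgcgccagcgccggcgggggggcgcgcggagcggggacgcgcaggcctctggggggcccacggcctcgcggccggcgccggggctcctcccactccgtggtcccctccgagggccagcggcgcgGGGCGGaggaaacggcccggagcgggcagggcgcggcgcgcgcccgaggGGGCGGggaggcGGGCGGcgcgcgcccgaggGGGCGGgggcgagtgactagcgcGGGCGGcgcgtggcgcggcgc
Elovl1: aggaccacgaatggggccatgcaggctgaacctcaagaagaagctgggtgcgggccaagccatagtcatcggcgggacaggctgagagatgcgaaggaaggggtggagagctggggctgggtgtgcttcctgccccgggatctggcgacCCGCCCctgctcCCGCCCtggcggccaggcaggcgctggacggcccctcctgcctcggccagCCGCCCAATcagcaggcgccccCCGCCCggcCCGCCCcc
Elovl5: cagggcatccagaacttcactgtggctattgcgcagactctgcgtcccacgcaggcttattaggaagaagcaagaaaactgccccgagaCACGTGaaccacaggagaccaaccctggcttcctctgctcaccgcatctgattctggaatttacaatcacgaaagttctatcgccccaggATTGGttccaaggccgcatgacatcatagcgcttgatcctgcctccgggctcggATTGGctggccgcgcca
The Fads2 window (chr19:10101504-10101753, minus strand) held 1 GGGCGG match. The Elovl2 window (chr13:41220404-41220653, minus strand) held 5 GGGCGG matches and had 87.2% G and C, against a median of 52.4% over 32851 windows of this length. The Elovl1 window (chr4:118427843-118428092, plus strand) also held 5 GGGCGG matches, all on the opposite strand, and 1 CCAAT match that overlaps one of them. The Elovl5 window (chr9:77917115-77917364, plus strand) held 2 CCAAT matches on the opposite strand and 1 CACGTG match. Of all windows, 32.7% held a GC box, 33.8% a CCAAT box, 6.02% an E-box, 12.4% a TATA box and 1.05% the sterol element. GGGCGG matches were thus present in windows of members that rose and of members that fell. Fads3 had 2 CCAAT and 2 GGGCGG matches. The Elovl6 window, whose start lies 31 bases from that of the deposited table, had none of the 5 motifs.

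Scd1, the main stearoyl-CoA desaturase of the adult liver, had the largest change of the 10. Its level was 2767, 2872 and 3131 FPKM in knockout livers, against 295, 415 and 315 FPKM in control livers. The lowest knockout value was 6.67 times the highest control value. The means, 2923 ± 188 and 342 ± 64.1 FPKM (SD, n = 3 each), stood in a ratio of 8.56. By level, Scd1 ranked 17, 17 and 16 among all listed genes in knockout livers and 154, 115 and 137 in control livers. Scd1 held 0.759% to 0.833% of all FPKM in a knockout library, against 0.0747% to 0.107% in a control library. Its log2 fold change of 3.11 ± 0.14 had the 6th highest value of the 10996 tested genes and the 2nd smallest p (limma, adjusted p = 0.000796). Relative spread was smaller in the knockout livers, with a coefficient of variation of 6.42% against 18.8% in control livers.

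Scd2, the isoform best known from brain and from early life, stood far below Scd1 in both groups. It was at 5.93, 6.56 and 3.65 FPKM in knockout livers, against 1.56, 1.39 and 1.37 FPKM in control livers. Knockout 3, which had the highest Scd1 of the 6 mice, had the lowest Scd2 of the knockouts. The groups did not overlap, with a log2 fold change of 1.36 ± 0.18 (limma, adjusted p = 0.0112). On FPKM without the pseudocount the ratio of means was 3.74, against 2.56 for FPKM + 1. Within a liver, Scd1 exceeded Scd2 by 466, 438 and 858 times in knockout mice and by 189, 298 and 231 times in control mice. The log2 ratio of Scd1 to Scd2 was higher by 1.25 in knockout livers (two-sided exact permutation test, p = 0.1, the smallest that 3 against 3 mice can give). The labels do not say how fragments shared by the close paralogs Scd1 and Scd2 were counted, so the level of Scd2 is uncertain. The levels of Scd2 rest on an estimated 117 to 548 fragments, and those of Scd1 on 23591 to 247760.

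**Figure D1:**
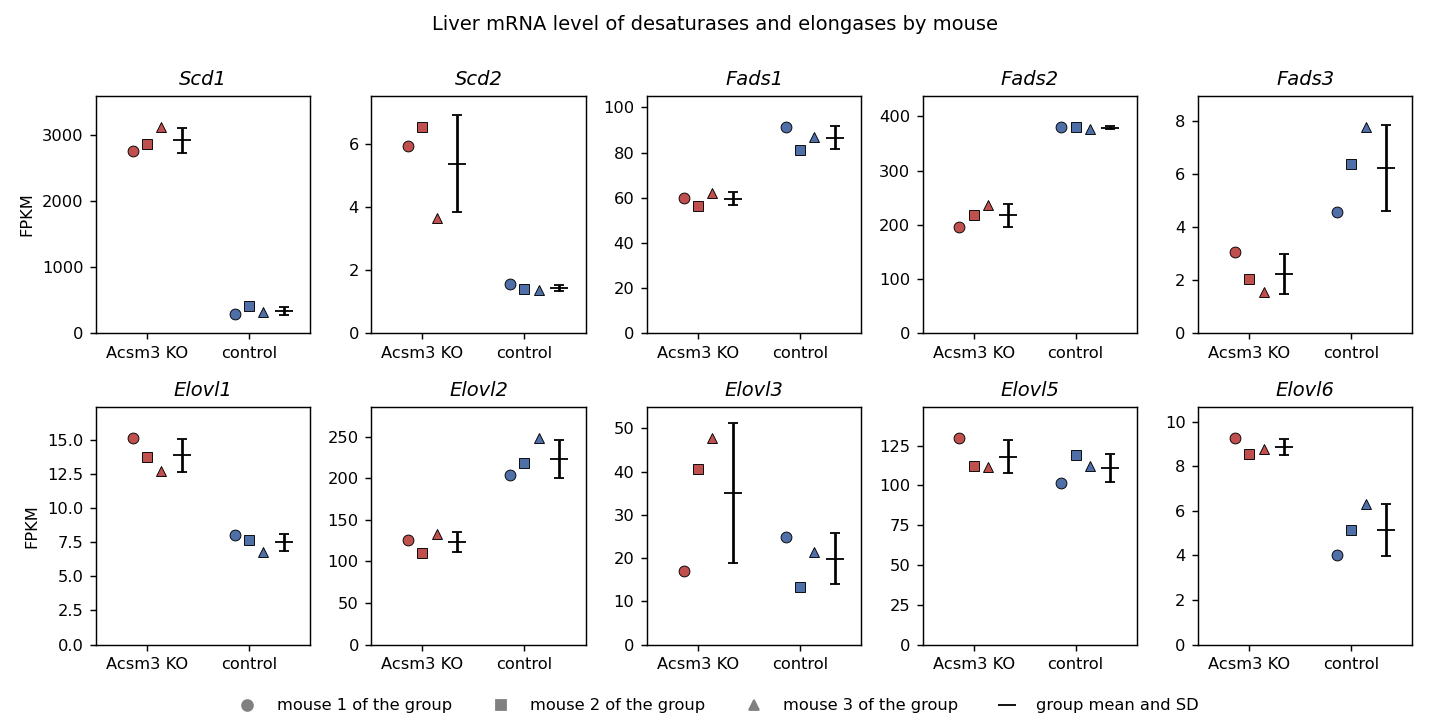
FPKM (linear axes from 0, a scale of its own in each panel) of the 10 genes in every mouse, with knockout mice in red and control mice in blue, and group mean and SD as bars (n = 3 each). Scd1, Scd2, Elovl1 and Elovl6 lie higher and Fads1, Fads2, Fads3 and Elovl2 lower in all 3 knockout mice, while the groups overlap for Elovl3 and Elovl5.

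The desaturases of polyunsaturated fatty acids moved the other way. Fads2, which opens the conversion of linoleate and alpha-linolenate, was at 196, 219 and 237 FPKM in knockout livers, against 380, 381 and 376 FPKM in control livers. The coefficient of variation over the control livers was 0.679%, the smallest of any member in either group, and the groups did not overlap. Fads2 fell, with a log2 fold change of -0.80 ± 0.09 (limma, adjusted p = 0.00638). Fads1, which acts later in the same path, was at 59.7, 56.5 and 62.3 FPKM in knockout livers, against 91.5, 81.3 and 86.7 FPKM in control livers. Its log2 fold change was -0.53 ± 0.08 (limma, adjusted p = 0.0129). That call ended without knockout 2 (adjusted p = 0.053) or without control 3 (adjusted p = 0.0519). Both genes fell in all 3 knockout mice, and Fads2 fell further than Fads1. The ratio of Fads2 to Fads1 was 3.28, 3.87 and 3.81 in knockout livers, against 4.15, 4.69 and 4.34 in control livers, and these groups did not overlap (log2 difference -0.27, two-sided exact permutation test, p = 0.1, the smallest possible).

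Fads3, whose product is described as acting on sphingoid bases, was the least abundant of the 3 FADS genes. It was at 3.06, 2.06 and 1.57 FPKM in knockout livers, against 4.57, 6.39 and 7.81 FPKM in control livers. The groups did not overlap, although the spread within each was wide, with coefficients of variation of 34.1% in knockout and 26% in control livers. Fads3 fell, with a log2 fold change of -1.17 ± 0.22 (limma, adjusted p = 0.0218), and the ratio of the control to the knockout mean was 2.8. The levels rest on an estimated 96 to 465 fragments. The call ended with no filter on low genes (adjusted p = 0.0593), without knockout 2 (adjusted p = 0.0767), without control 2 (adjusted p = 0.0766) or without control 3 (adjusted p = 0.0704). Summed over the 3 genes, FADS transcripts were at 279 ± 21.3 FPKM in knockout and 472 ± 3.63 FPKM in control livers (SD, n = 3 each).

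Among the elongases of polyunsaturated chains, 1 fell and 1 did not pass. Elovl2, which lengthens the longest polyunsaturated chains on the way to docosahexaenoate, was at 126, 110 and 133 FPKM in knockout livers, against 204, 219 and 249 FPKM in control livers. Its log2 fold change was -0.86 ± 0.11 (limma, adjusted p = 0.00985), close in size to that of Fads2. Elovl5, which lengthens shorter polyunsaturated chains, was at 130, 112 and 111 FPKM in knockout livers, against 101, 119 and 112 FPKM in control livers. The groups overlapped, and the log2 fold change of 0.09 had a 95% interval of -0.14 to 0.32 (limma, adjusted p = 0.552). Its sign depended on scaling, with -0.08 after median-ratio rescaling of the libraries. The ratio of Elovl5 to Elovl2 was 1.03, 1.03 and 0.837 in knockout livers, against 0.497, 0.545 and 0.45 in control livers. A factor applied to a whole library does not alter these ratios, and the groups did not overlap (log2 difference 0.95, two-sided exact permutation test, p = 0.1, the smallest possible).

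The elongases of saturated and monounsaturated chains lay higher in the mean. Elovl6, which turns palmitate into stearate, a substrate of SCD, was at 9.28, 8.55 and 8.79 FPKM in knockout livers, against 4.01, 5.14 and 6.31 FPKM in control livers. Knockout values were tight, with a coefficient of variation of 4.23%, against 22.4% in control livers. Elovl6 rose, with a log2 fold change of 0.70 ± 0.14 (limma, adjusted p = 0.0244). This call ended after median-ratio rescaling (adjusted p = 0.0585), with quantile normalization (adjusted p = 0.0749), with no filter (adjusted p = 0.0616) and without knockout 1, knockout 2 or control 2 (adjusted p = 0.0735, 0.0771 and 0.0791). Scd1 exceeded Elovl6 by 298, 336 and 356 times in knockout livers and by 73.7, 80.8 and 49.9 times in control livers (log2 difference 2.30, two-sided exact permutation test, p = 0.1, the smallest possible).

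Elovl1, which makes very-long-chain saturated and monounsaturated acyl groups found in sphingolipids, was at 15.2, 13.8 and 12.8 FPKM in knockout livers, against 8.06, 7.67 and 6.82 FPKM in control livers. Each knockout value exceeded each control value by at least 1.58 times. Elovl1 rose, with a log2 fold change of 0.81 ± 0.09 (limma, adjusted p = 0.00771). Its exons share 53 bases with those of Cdc20 on the other strand, which had a mean of 0.165 FPKM over the 6 mice. Elovl3, an elongase of liver, skin and brown fat, was at 16.9, 40.7 and 47.8 FPKM in knockout livers, against 24.8, 13.4 and 21.3 FPKM in control livers. Knockout 1 lay below controls 1 and 3, while knockouts 2 and 3 lay above all controls. The log2 fold change of 0.71 ± 0.40 did not pass (limma, adjusted p = 0.249, 95% interval -0.24 to 1.66). Without knockout 1 it was 1.16, still not past the threshold (adjusted p = 0.0616). Thrsp, a lipogenic regulator chosen after its values were seen, had its lowest value in the same mouse, with 11.5, 44.5 and 61.1 FPKM in knockout livers, against 17.9, 19.9 and 11.7 FPKM in control livers.

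**Figure D2:**
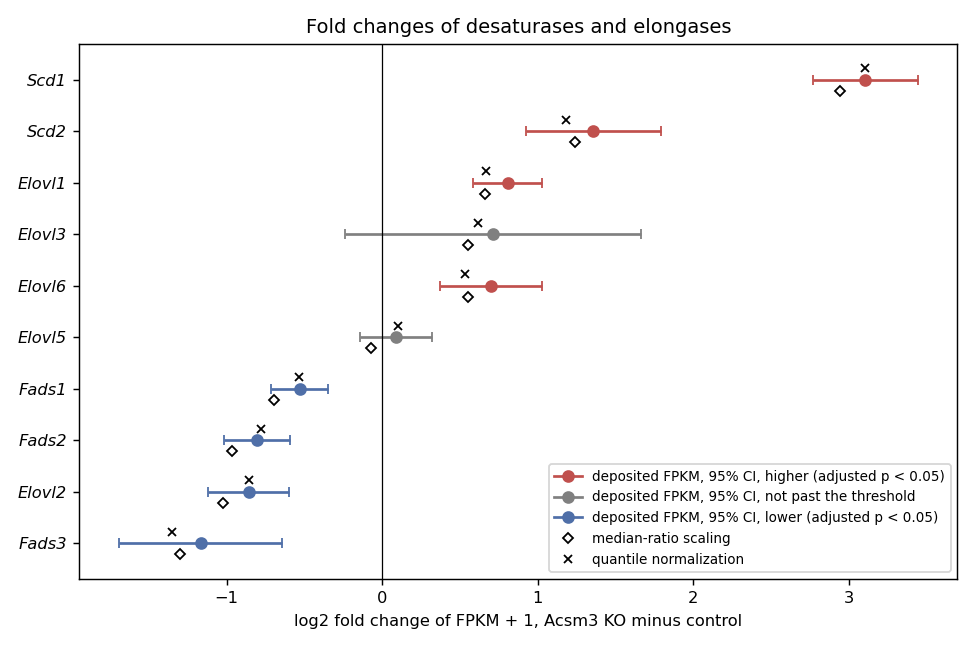
Log2 fold change of FPKM + 1 (knockout minus control) of the 10 genes with 95% limma intervals (n = 3 mice each), in red where higher, blue where lower and grey where not past the threshold, with the values after median-ratio scaling (diamonds) and quantile normalization (crosses). Scd1 stands apart at 3.11, and Elovl5 is the only member whose sign differs between these scalings.

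The order of levels differed between the groups. In knockout livers it ran Scd1, Fads2, Elovl2, Elovl5, Fads1, Elovl3, Elovl1, Elovl6, Scd2 and Fads3, and only Elovl2 and Elovl5 overlapped as neighbours in that order. In control livers it ran Fads2, Scd1, Elovl2, Elovl5, Fads1, Elovl3, Elovl1, Fads3, Elovl6 and Scd2, and the neighbours Fads2 and Scd1, Elovl1 and Fads3, and Fads3 and Elovl6 overlapped. The summed level of the 10 genes was 3507 ± 218 FPKM in knockout and 1182 ± 67.1 FPKM in control livers (SD, n = 3 each). Without Scd1 the sum was 583 ± 31.1 FPKM in knockout and 840 ± 24.5 FPKM in control livers. Scd1 made up 83.1%, 83.5% and 83.5% of the sum in knockout livers, against 26.5%, 33.2% and 26.7% in control livers. The share of Fads2 was 6.19 ± 0.263% in knockout and 32.1 ± 1.8% in control livers, and that of Elovl2 was 3.51 ± 0.303% in knockout and 18.9 ± 1.86% in control livers. Shares add to a whole, so those of the other genes are lower wherever that of Scd1 is higher.

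**Figure D3:**
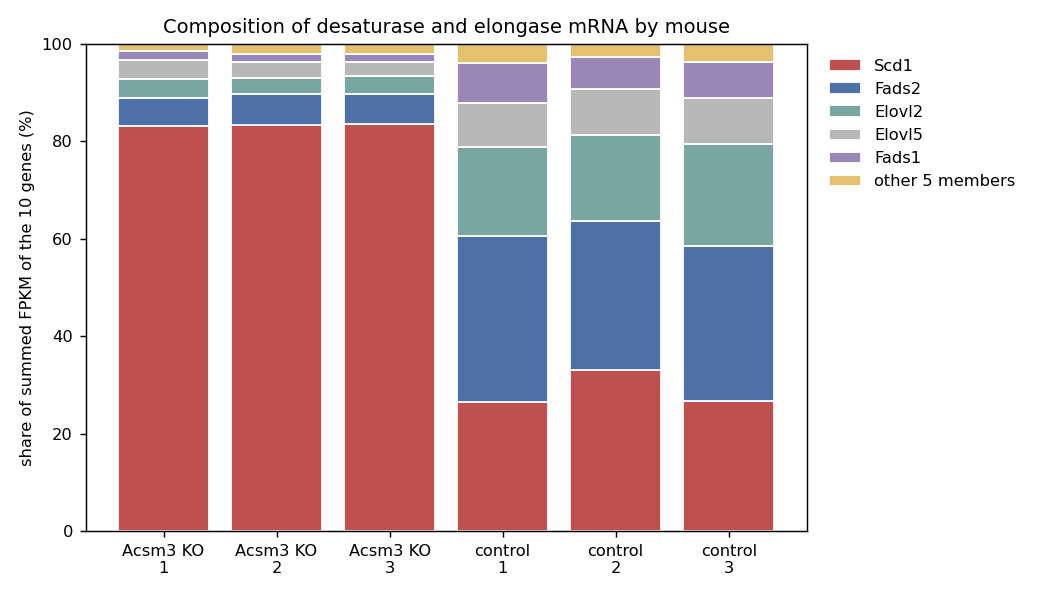
Share of each gene in the summed FPKM of the 10 genes (percent, stacked to the whole), 1 bar per mouse, with knockout mice left and control mice right. Scd1 fills 83.1% to 83.5% of the bar in knockout livers and 26.5% to 33.2% in control livers.

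**Figure D4:**
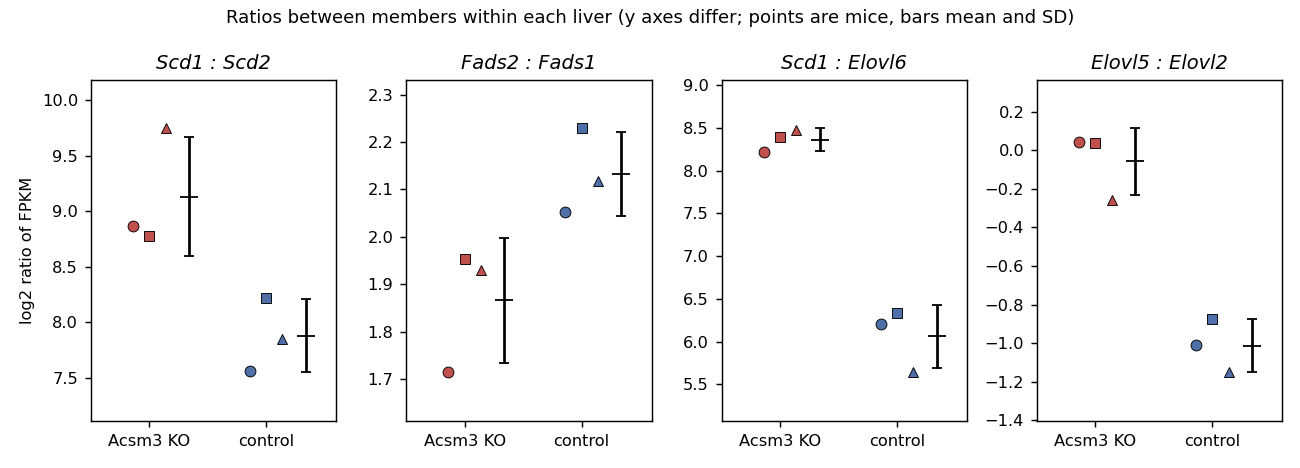
Log2 ratio of FPKM between pairs of members in each mouse (knockout left in red, control right in blue, axes differ between panels), with group mean and SD as bars (n = 3 each). The groups do not overlap in any of the 4 ratios, and the ratio of Scd1 to Elovl6 shows the widest gap, with a difference of 2.30. Each difference restates the gap between the log2 fold changes (without a pseudocount) of the paired genes. The share of other gene pairs without overlap was not computed, and 41.8% of single tested genes had no overlap.

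Of the 10 genes, 6 lie on chromosome 19 (GRCm38, coordinates of the deposited table), and within the Fads and Scd clusters the called members had the same direction. Fads3 (10041548 to 10059671, plus strand), Fads2 (10064164 to 10101503, minus strand) and Fads1 (10182888 to 10196870, plus strand) form 1 cluster, and all 3 fell. Of the 5 listed genes on each side of it, 4 were tested and limma called 0 (1 with an unadjusted p under 0.05). Scd2 (44293676 to 44306864, plus strand) and Scd1 (44394451 to 44407709, minus strand) lie in a cluster with Scd3 and Scd4, and both rose. Of the 10 genes around that cluster, 7 were tested and limma called 0 (2 with an unadjusted p under 0.05). Around Elovl3 (46131897 to 46135307, plus strand), 6 of 10 neighbours were tested and 3 rose. These were Nfkb2 (0.91 ± 0.18), Pprc1 (0.44 ± 0.12) and Gbf1 (0.31 ± 0.08, limma, adjusted p from 0.0255 to 0.0459). Over all tested genes 13.9% were called higher and 2.61% lower, and so few tested neighbours do not set the loci apart. Elovl1 lies on chromosome 4, Elovl2 on chromosome 13, Elovl5 on chromosome 9 and Elovl6 on chromosome 3.

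Of 7 other desaturase and elongase genes, 2 were tested and 5 lay below the filter. Degs1, the desaturase that forms ceramide, rose (0.49 ± 0.07, limma, adjusted p = 0.0138), at 43.8, 40.7 and 38.9 FPKM in knockout livers, against 30.1, 27.9 and 29 FPKM in control livers. That call held without 3 of the 6 mice. Fads6 was at 0.15 ± 0.14 (limma, adjusted p = 0.504). Elovl7 was not tested, and was at 1.2, 1.87 and 0.493 FPKM in knockout livers, against 0.0305, 0.236 and 0.143 FPKM in control livers. Scd3 was at 0.0891 to 0.113 FPKM in knockout livers, and was listed at 0 in 2 control livers and at 0.0353 FPKM in the other. Scd4 and Elovl4 lay below 0.1 FPKM in every liver, and Degs2 was at 0.0759 to 0.249 FPKM in knockout and 0.0489 to 0.123 FPKM in control livers. Of the 4 Scd genes, Scd1 and Scd2 were thus the ones tested.

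Among genes that work beside the elongases and desaturases, limma called 8 of 39 tested genes higher and 0 lower (20 had an unadjusted p under 0.05). Of all tested genes 16.5% were called, 13.9% as higher and 2.61% as lower. After median-ratio rescaling 5 of the 39 were higher and 5 lower, against 7.57% and 6.7% of all tested genes. Of the other enzymes of the elongation cycle, 1 of 5 tested genes rose, Hacd1 (0.41 ± 0.11, limma, adjusted p = 0.0453), a dehydratase, with 0 called after median-ratio rescaling, 4 at an unadjusted p under 0.05 and a list median of 0.29. Of cytochrome b5 and its reductases, 2 of 5 tested genes rose, the reductase Cyb5r3 (0.68 ± 0.10) and the outer mitochondrial membrane form Cyb5b (0.27 ± 0.06, limma, adjusted p = 0.0132 and 0.0353), with a list median of 0.27. After rescaling, Cyb5r3 was the 1 called (adjusted p = 0.0162), and the calls of Hacd1 and Cyb5b ended whichever mouse was left out. Of the enzymes that supply palmitate, 4 of 12 tested genes rose, namely fatty acid synthase Fasn (1.42 ± 0.14), the pentose phosphate enzyme Pgd (0.86 ± 0.15), malic enzyme Me1 (0.61 ± 0.10) and acetyl-CoA carboxylase Acaca (0.59 ± 0.10), with adjusted p from 0.00546 to 0.0194 (limma). The call of Fasn held without each of the 6 mice in turn, that of Me1 without 3, that of Pgd without 2 and that of Acaca without 1. After rescaling 4 were higher and 3 lower (Acly, Slc25a1 and Mcat), and the list median was 0.25. Of 8 tested genes of peroxisomal chain shortening, the last stage of docosahexaenoate synthesis, limma called 0 (2 with an unadjusted p under 0.05, list median 0.06), and after rescaling 2 were lower (Abcd2 and Acaa1a). The transporter gene Abcd2 had the smallest p of these (-0.46 ± 0.13, limma, adjusted p = 0.0571). Of 9 tested genes that activate or esterify acyl chains, 1 rose, Acsl4 (0.46 ± 0.07, limma, adjusted p = 0.0138), an acyl-CoA synthetase that prefers arachidonate, with 0 called after rescaling and a list median of 0.02.

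Regulators of these genes were looked at by the level of their own mRNA. Of 16 tested, 2 rose and 0 fell, against 13.9% of all tested genes called higher and 2.61% lower (list median 0.01). After rescaling 1 was higher and 2 were lower, against 7.57% and 6.7% of all tested genes. Insig2, an endoplasmic reticulum protein that holds back SREBP processing, was at 124, 117 and 143 FPKM in knockout livers, against 54.4, 32.1 and 38.5 FPKM in control livers (1.63 ± 0.19, limma, adjusted p = 0.00777). Hnf4a, a hepatocyte transcription factor, rose by 0.70 ± 0.12 (limma, adjusted p = 0.0194) and was not past the threshold after rescaling (adjusted p = 0.0524). Insig1 was at -0.36 ± 0.17 (adjusted p = 0.179), Srebf1 at -0.03 ± 0.25 (adjusted p = 0.951) and Srebf2 at -0.07 ± 0.10 (limma, adjusted p = 0.683). Mlxipl, which encodes ChREBP, was at 0.20 ± 0.22 (adjusted p = 0.554) and Nr1h3, which encodes LXR-alpha, at -0.15 ± 0.10 (limma, adjusted p = 0.317, and 0.0387 as a lower gene after rescaling). Ppara was at -0.29 ± 0.17 (adjusted p = 0.257) and Pparg at 0.45 ± 0.16 (limma, adjusted p = 0.0883).

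**Figure D5:**
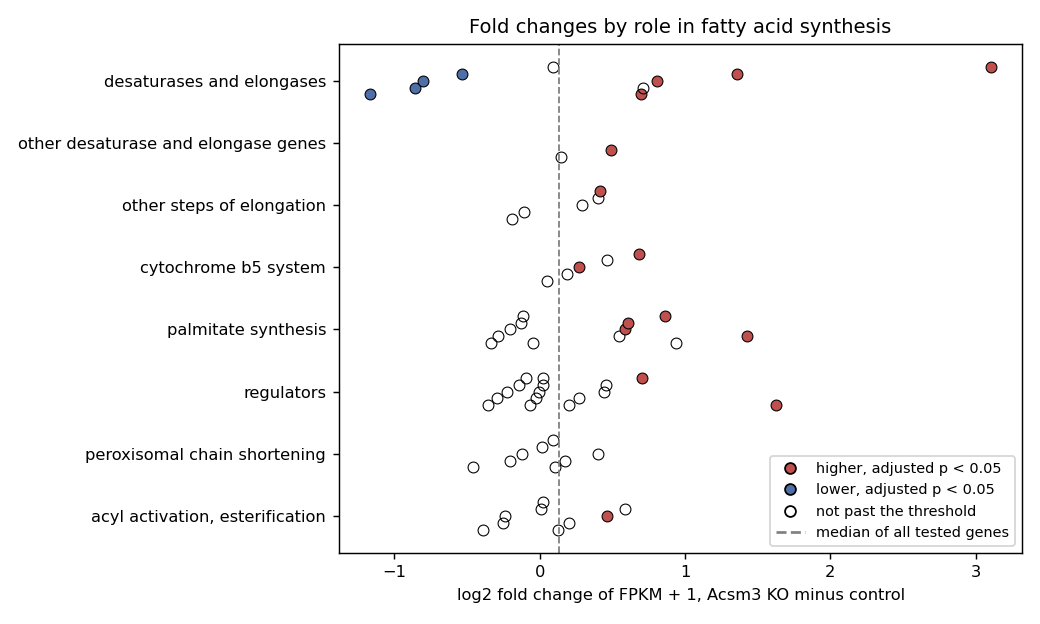
Log2 fold change of FPKM + 1 (knockout minus control) of each tested gene, 1 row per role, filled red where higher, blue where lower and open where not past the threshold, with the median of all tested genes (0.13) as a dashed line. The 4 filled blue points all belong to the desaturases and elongases, and none of the other 7 lists has a called lower gene with the deposited scaling. With that scaling 2.61% of all tested genes were called lower. After median-ratio rescaling 3 palmitate, 2 regulator and 2 peroxisomal genes were lower too.

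Among all tested genes with a name other than a clone or predicted gene name, those nearest to Scd1 in pattern over the 6 mice were Gsta1, Sult1e1, Col3a1, Orm3 and S100a11. Nearness is the root-mean-square difference of log2(FPKM + 1) after centring each gene on its mean, and it was 0.34 to 0.43 for these. Scd2, the nearest other member, was at 0.93. Nearest to Fads2 were Per3 (0.05), mt-Nd1, Ces1f, Ngef and Timd4 (up to 0.11), and the nearest member was Elovl2 (0.14). Nearest to Elovl6 were Fhit (0.1), Postn, Vcl, Lbh and Pelo (up to 0.13), and the nearest member was Elovl1 (0.23). With 2 groups of 3 mice, genes with a like difference between the groups lie near each other by this measure.

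The liver is a mixture of cells, and in bulk RNA fewer cells of a type and less RNA per cell cannot be told apart. The counts of called markers below stand against 13.9% of all tested genes called higher and 2.61% called lower. Of hepatocyte markers 3 of 7 tested genes fell, namely Pck1 (-0.79 ± 0.20), Alb (-0.61 ± 0.13) and Ttr (-0.43 ± 0.09), and 4 did not pass. The summed level of the list was 30284 to 33456 FPKM in knockout livers, against 41617 to 49560 FPKM in control livers. Most of this sum was Alb, with means of 22584 FPKM in knockout and 34484 FPKM in control livers. Of macrophage and leukocyte markers 4 of 7 tested genes rose, with Cd68 (1.35 ± 0.29), Lyz2 (1.28 ± 0.32), Adgre1 (0.93 ± 0.24) and Ptprc (0.71 ± 0.19), and summed levels were 189 to 361 FPKM in knockout and 109 to 174 FPKM in control livers. Of stellate cell and fibroblast markers 6 of 8 rose, among them Col1a1 (2.80 ± 0.31), Col3a1 (2.69 ± 0.23), Col1a2 (2.08 ± 0.20) and Pdgfrb (1.10 ± 0.13), at 81.6 to 113 FPKM in knockout and 36.8 to 44.1 FPKM in control livers. Of endothelial markers 2 of 6 rose, Stab2 (0.67 ± 0.14) and Pecam1 (0.49 ± 0.10), at 61.7 to 79.1 FPKM in knockout and 47.5 to 54.9 FPKM in control livers. Of biliary markers the 1 tested gene rose, Spp1 (1.61 ± 0.23), which macrophages also express. List sums were 34.1 to 66.7 FPKM in knockout and 13.5 to 16.1 FPKM in control livers. Most of each sum was Spp1, at 40.9, 64 and 32.1 FPKM in knockout and 12.5, 14.8 and 13.7 FPKM in control livers. Of the untested markers, mean FPKM in knockout and control livers were 0.366 and 0.352 (Krt19), 0.796 and 0.573 (Epcam) and 1.21 and 0.264 (Sox9). Krt7 and Cftr lay below 0.1 FPKM in every liver. Of adipocyte markers, Cfd (2.58 ± 0.36) and Fabp4 (1.05 ± 0.16) rose, at list sums of 6.81 to 14.1 FPKM in knockout and 1.61 to 1.89 FPKM in control livers, while Adipoq, Plin1, Retn and Lep lay below 0.1 FPKM in every liver. These marker calls had adjusted p up to 0.0497 (limma). Those of hepatocyte, macrophage and endothelial genes each held without 1 of the 6 mice only, while Col1a1, Col1a2, Col3a1, Pdgfrb and Cfd held without each mouse in turn. After rescaling, 2 macrophage, 5 stellate and 2 endothelial genes were higher and 3 hepatocyte genes lower. The shares of all tested genes were then 7.57% higher and 6.7% lower. The part of these cell types in the changes of the desaturases and elongases was not tested.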

How the data were processed

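Poly(A)-selected liver RNA of 3 knockout and 3 control mice was sequenced, per the labels' protocols. The authors deposited 1 table of FPKM values, per the file headers 1 column per mouse. The submitters' processing notes list the build GRCm38 and the tools StringTie 1.3.0, HISAT2 2.0.4 and Bowtie2 2.2.6, but not what each did. Strandedness and the handling of paralogs are not stated in the labels. Groups and replicate numbers come from the titles. Of 28450 identifiers, 28411 were in GENCODE M21 (GRCm38) and 27207 had the same position there.

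FPKM were taken as log2(FPKM + 1), and the 10996 genes averaging 1 FPKM or more were fitted with limma 3.58.1 in R 4.3.3 (lmFit, eBayes with a trend, Benjamini-Hochberg over all tested genes, threshold 0.05). The limma p-values weigh the group difference against the spread between the 3 mice within each group, moderated by a trend over all tested genes. Ratios between members were compared with exact permutation tests over mice. They restate differences between the fold changes of the paired members and are not separate results. FPKM state no depth. Low values multiplied by union exon length moved in steps of 1 fragment at totals of 15302150 to 16344400 fragments, with 99.6% to 99.7% of values under 20 fragments within 0.1 of a whole number. These totals are estimates, since fragments over all genes came to 102.9% to 103.4% of them, and fragment numbers cover counting error only. The fit was checked on simulated data.

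The members and gene lists were chosen with earlier results of these data known. All members, Acsm3, the other desaturase and elongase genes and 8 regulators were named, and of each other list and of the remaining regulators up to 4 called genes of largest fold, or the 2 of smallest p, of which 1 gene is not reported here. Neighbours that were called and the 5 genes nearest in pattern to Scd1, Fads2 and Elovl6 were named too. Acly, Slc25a1, Mcat, Acaa1a and Thrsp were named after their values were seen. Itgam is listed under 2 identifiers, and 1 hepatocyte marker is not used here. Alternatives were scaling by median ratio, quantiles or a common sum, a filter at 5 FPKM or none, other pseudocounts (0.1 and 5), fits that dropped the trend, used a robust prior or weighted the libraries, the replicate number as a block, and leaving out each mouse. Promoters were searched with Python 3.11.15, pandas 2.3.3, numpy 2.4.6 and scipy 1.17.1, and figures drawn with matplotlib 3.10.9.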

Additional observations from a re-analysis of the deposited data

How the results depend on the processing

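Scd1, Scd2, Fads2, Elovl1 and Elovl2 kept direction and call under every alternative in which they were tested, Scd2 and Fads3 being left out by the filter at 5 FPKM. Their log2 fold changes ranged from 2.94 to 3.25 (Scd1), 0.68 to 1.79 (Scd2), -0.97 to -0.73 (Fads2), 0.60 to 0.93 (Elovl1) and -1.02 to -0.78 (Elovl2). Fads1 kept its call in 15 of 17 alternatives, Fads3 in 12 of 16 and Elovl6 in 11 of 17, and none of these changed sign. Elovl3 and Elovl5 did not pass in any, and Elovl5 turned to -0.075 after median-ratio scaling. Leaving out 1 mouse gave 3 to 4 members higher and 2 to 4 lower (2 lower without knockout 2 or control 3), and 287 to 2250 genes called in all, against 1819 with all mice. The total was 650 with no filter, 1108 with a filter at 5 FPKM, 2820 after rescaling to a common sum and 3279 with array weights. The split of calls was 1532 higher and 287 lower with the deposited scaling, 830 and 735 after median-ratio scaling and 752 and 603 with quantile normalization. Over all tested genes the median was 0.13 with the deposited scaling and near 0 after median-ratio scaling. Relative to a median of 0.13, the members stood at 2.98 (Scd1), 1.23 (Scd2), 0.68 (Elovl1), 0.58 (Elovl3), 0.57 (Elovl6), -0.04 (Elovl5), -0.66 (Fads1), -0.93 (Fads2), -0.99 (Elovl2) and -1.30 (Fads3).

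Deviations from the group means correlated at 0.11, 0.09 and 0.19 between mice of the same replicate number. Between mice of unlike number they correlated at -0.18 to 0.07, so each mouse correlated best with its own number. Whether the numbers pair the mice cannot be decided from these values, and the main fit did not use the numbers. With the number as a block 2018 genes were called, with 4 members higher and 4 lower, while for the log2 ratios the block leaves the differences of 1.25, -0.27, 2.30 and 0.95 as they are by construction (exact sign-flip test, p = 0.25, the smallest that 3 pairs can give). With 1 mouse left out these differences ranged from 0.94 to 1.43, -0.31 to -0.19, 2.09 to 2.44 and 0.88 to 1.05, and with a pseudocount of 1 they were 1.75, -0.27, 2.41 and 0.95. Depth limits Fads3 (96 to 465 estimated fragments) and Scd2 (117 to 548) most.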
